A study of Mus musculus with 12 samples.

Results

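Transcripts of 10 genes of the hypoxia response were followed in a mouse macrophage line with and without oxidised low-density lipoprotein (OxLDL). They were taken from the deposited table of raw read counts as the rows whose gene name was Hif1a, Epas1, Arnt, Egln1, Egln3, Vegfa, Adm, Bnip3, Ndrg1 or P4ha1. Each name matched 1 row, which gave 10 of the 39179 rows, and 9 of the 10 were among the 13121 genes left after low counts were removed. Egln3 was not. The cells were RAW 264.7, a macrophage line of BALB/c origin, and both lines compared had been nucleofected with a short hairpin RNA (shRNA) and kept under puromycin selection as stable cells. Control cells carried sh-Luc, a hairpin against luciferase, and the others carried a hairpin labelled sh-PHLPP1, against a phosphatase that acts on AKT and other kinases. Each line was left untreated or was given OxLDL at 100 µg/ml for 24 h, which made 4 groups of 3 libraries, numbered 1, 2 and 3 for passages 9, 10 and 11. The labels describe 1 stable line per hairpin, so p-values measure the spread between passages of a line, not between independently made lines.

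Hypoxia-inducible factors (HIFs) are pairs of an oxygen-regulated alpha subunit, encoded by Hif1a or Epas1, and a constant beta subunit, encoded by Arnt. When oxygen is present, prolyl hydroxylases encoded by Egln genes mark the alpha subunits for destruction through the VHL ubiquitin ligase, so that HIF activity is set largely at the protein level, which RNA counts do not measure. Some hydroxylase genes are themselves HIF targets, as are genes for blood vessel growth, glycolysis and removal of mitochondria. In macrophages, inflammatory signals through NF-kB also raise Hif1a transcription, and lipid-loaded macrophages of atherosclerotic plaques are known to hold HIF protein. No label of these samples mentions a change of oxygen.

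Library totals ran from 16020186 to 27422114 counts, and within-group correlations of log2 CPM from 0.970 to 0.997. Replicate 2 of untreated sh-Luc and replicate 1 of the untreated libraries labelled sh-PHLPP1 stood apart within their groups (the outlying libraries), with highest correlations of 0.986 and 0.970 to their own group. Phlpp1, the targeted gene, stood at 12.4, 14.4 and 13.3 CPM in untreated sh-Luc and at 17.3, 14.6 and 14.0 CPM in untreated libraries labelled sh-PHLPP1. It was thus not lower in the latter (log2 fold change 0.19 ± 0.13, SE, edgeR adjusted p = 0.279), which are therefore called by their label. After OxLDL it stood at 11.4, 13.5 and 11.4 CPM for sh-Luc and at 8.65, 8.35 and 7.40 CPM in libraries labelled sh-PHLPP1 (-0.57 ± 0.14, adjusted p = 0.00385). Its interaction of line and OxLDL was -0.77 ± 0.19 (adjusted p = 0.0133). The 10 macrophage markers summed to 16391 to 19647 CPM in untreated sh-Luc, 18597 to 20563 CPM in sh-Luc after OxLDL, 11224 to 13119 CPM in untreated libraries labelled sh-PHLPP1 and 16245 to 18730 CPM in those after OxLDL, so the third of these groups was the lowest. Lyz2 was the largest part of each sum, at means of 10597, 13517, 7154 and 8588 CPM in the same order. Between the untreated lines 1 of the 10 markers was higher and 2 lower in libraries labelled sh-PHLPP1, where 27.0% of all genes were called. After OxLDL 6 were higher and 2 lower, where 55.2% of all genes were called. The 5 epithelial markers summed to at most 0.0421 CPM. The 6 fibroblast markers summed to at most 5.03 CPM, with Lum at 0 in every library. All 3 that could be tested rose with OxLDL in the sh-PHLPP1-labelled line, where 26.2% of all genes were called higher. The 8 markers of osteoclasts, which RAW 264.7 cells can become, summed to 180 to 478 CPM in untreated sh-Luc, 358 to 503 CPM in sh-Luc after OxLDL, and 58.2 to 112 CPM and 678 to 804 CPM in libraries labelled sh-PHLPP1 without and with OxLDL. The last sum was mostly Mmp9, a matrix protease that activated macrophages also make, at 630 to 736 CPM. Of the 6 osteoclast markers tested, 0 were higher and 5 lower between the untreated lines, and 1 (Mmp9) was higher and 4 lower after OxLDL, with a median log2 fold change of -1.82. Ctsk, the osteoclast protease cathepsin K, stood at a mean of 166 CPM in sh-Luc and 2.04 CPM in the other line after OxLDL. These markers moved with the groups compared, and their part in the results was not tested.

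HIFs bind a short DNA core, ACGTG or GCGTG, in their target genes. Promoter sequence from RefSeq (GRCm38.p6) was found for 8 of the 10 genes, in 9 entries of which Vegfa had 2, and none for Epas1 or Ndrg1. In the 250 bases before the annotated start, the core was present on either strand in 8 of the 9 entries (88.9%) and in 38.6% of all 32851 promoters of the table, while the mean GC content was 64.2% in the 9 and 53.2% in all. The entry without it was the upstream start of Vegfa. The other Vegfa entry (chr17:46025164-46025413) and the Hif1a entry (chr12:73907617-73907866) lie inside the gene positions given below, so they are not upstream of the whole gene. Bases that follow the start were found in an annotated transcript for the Arnt, Egln1, Bnip3 and P4ha1 entries only. Sequences of 3 genes are shown: Bnip3 and Egln1, which had the largest called falls with OxLDL among the 9 genes in the sh-PHLPP1-labelled line, and P4ha1, which had the 1 called rise there. They are the bases before the RefSeq start of Egln1 (chr8:124949255-124949504, minus strand), Bnip3 (chr7:138909507-138909756, minus strand) and P4ha1 (chr10:59323046-59323295, plus strand), 5′ to 3′ on the gene's strand, with every core on either strand in capitals. The gene positions given below come from another annotation. There Egln1 reaches to 124949324 and Bnip3 to 138909519, so the last bases of these 2 stretches lie inside the genes.
Egln1: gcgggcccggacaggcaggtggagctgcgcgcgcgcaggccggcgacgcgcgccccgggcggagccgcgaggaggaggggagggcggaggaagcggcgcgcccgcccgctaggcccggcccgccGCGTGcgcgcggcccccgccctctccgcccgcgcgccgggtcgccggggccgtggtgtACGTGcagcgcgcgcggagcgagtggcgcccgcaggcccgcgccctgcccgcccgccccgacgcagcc
Bnip3: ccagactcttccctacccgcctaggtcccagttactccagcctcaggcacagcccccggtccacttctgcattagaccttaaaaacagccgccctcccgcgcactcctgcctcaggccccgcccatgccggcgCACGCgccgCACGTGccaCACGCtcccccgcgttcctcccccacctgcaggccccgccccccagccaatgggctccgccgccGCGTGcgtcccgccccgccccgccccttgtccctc
P4ha1: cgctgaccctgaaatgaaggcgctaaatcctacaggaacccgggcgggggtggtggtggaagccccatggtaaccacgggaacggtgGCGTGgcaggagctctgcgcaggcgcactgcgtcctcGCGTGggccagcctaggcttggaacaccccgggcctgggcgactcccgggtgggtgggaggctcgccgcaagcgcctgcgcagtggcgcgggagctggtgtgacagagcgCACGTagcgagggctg
Egln1 held 2 cores, at 126 and 68 bases before the RefSeq start, and the nearer one lies inside the gene position given below. Bnip3 held 5 matches, at 117, 108, 107, 99 and 35 bases, of which those at 108 and 107 overlap as the palindrome CACGTG, a sequence that MYC and other factors also recognise and that 6.02% of all promoters held. P4ha1 held 3, at 163, 126 and 16 bases. A match describes these letters and is no evidence of binding.

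Per length of exon, the genes covered a wide range of levels in untreated sh-Luc cells. P4ha1 was the most abundant at 61.1 ± 11.9 CPM per kb (SD, n = 3), followed by Hif1a at 24.0 ± 2.42, Ndrg1 at 20.8 ± 8.02, Bnip3 at 19.1 ± 5.99 and Egln1 at 15.5 ± 1.29 CPM per kb, neighbours that lay within the spread of these libraries. Vegfa at 7.90 ± 3.24 and Arnt at 6.04 ± 0.216 CPM per kb were lower. Epas1 at 0.820 ± 0.231 and Adm at 0.252 ± 0.00750 CPM per kb were rare. All values below are CPM on the TMM scale (counts per unit of library size, scaled for composition) and are compared only within a gene.

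**Figure D1:**
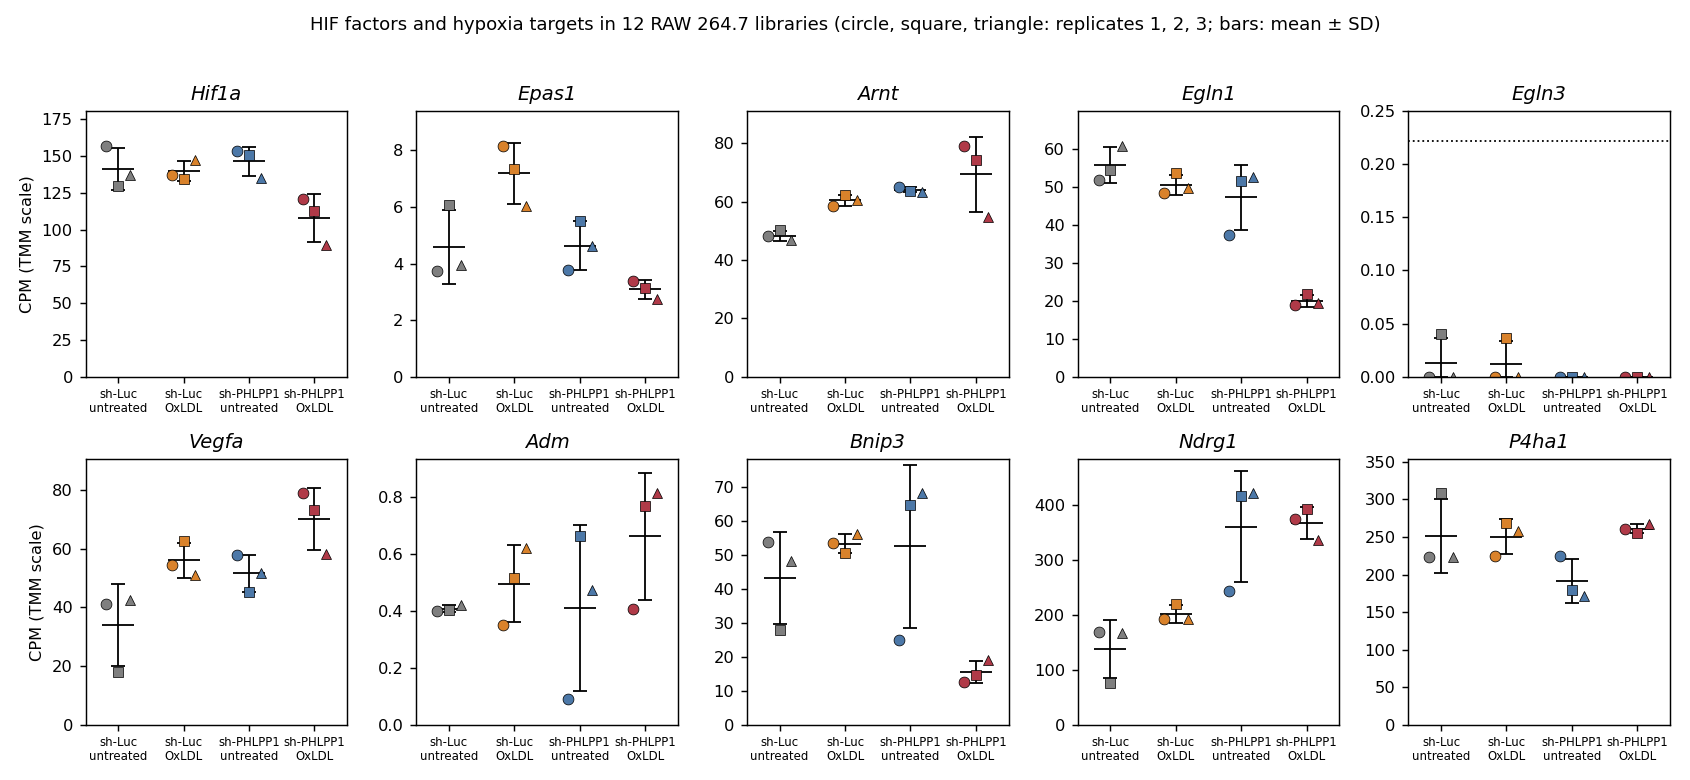
Level of each gene in every library (CPM on the TMM scale, linear axes from 0), with the libraries of the 4 groups as points (circle, square and triangle for replicates 1, 2 and 3) and the group mean ± SD as bars. Egln1 and Bnip3 lie lowest in the 3 libraries labelled sh-PHLPP1 after OxLDL, and the dotted line for Egln3 marks the largest level, 0.222 CPM, that 3 counts would give in any library.

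For OxLDL in sh-Luc cells, 0 of the 9 genes tested were called at an adjusted p under 0.05 (edgeR, with 3 at an unadjusted p under 0.05). Of all genes 9.47% were called, 6.38% higher and 3.09% lower. DESeq2 fitted to all 12 libraries also called 0 of the 9. The authors' deposited table calls 3 of the 8 genes it lists, as given below, where 25.8% of its rows are under 0.05. Libraries with and without OxLDL did not overlap for 3 of the 9, against 43.2% of all genes. In the other line, labelled sh-PHLPP1, OxLDL raised 1 and lowered 4 of the 9, where 54.6% of all genes were called, 26.2% higher and 28.4% lower, and 6 of the 9 did not overlap, against 59.9%. Between the untreated lines 2 of the 9 were higher and 0 lower in libraries labelled sh-PHLPP1, where 27.0% of all genes were called, 14.9% higher and 12.2% lower, and 3 did not overlap, against 36.9%. After OxLDL 1 of the 9 was higher and 4 were lower, where 55.2% of all genes were called, 27.6% higher and 27.6% lower, and 5 did not overlap, against 69.2%. With 9 genes these counts are not set apart from the backgrounds, and the results below are about single genes. The median log2 fold change of the 9 was 0.30, 0.03, 0.07 and 0.06 in these 4 comparisons, and that of all genes was -0.0036, -0.031, 0.03 and 0.01.

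**Figure D2:**
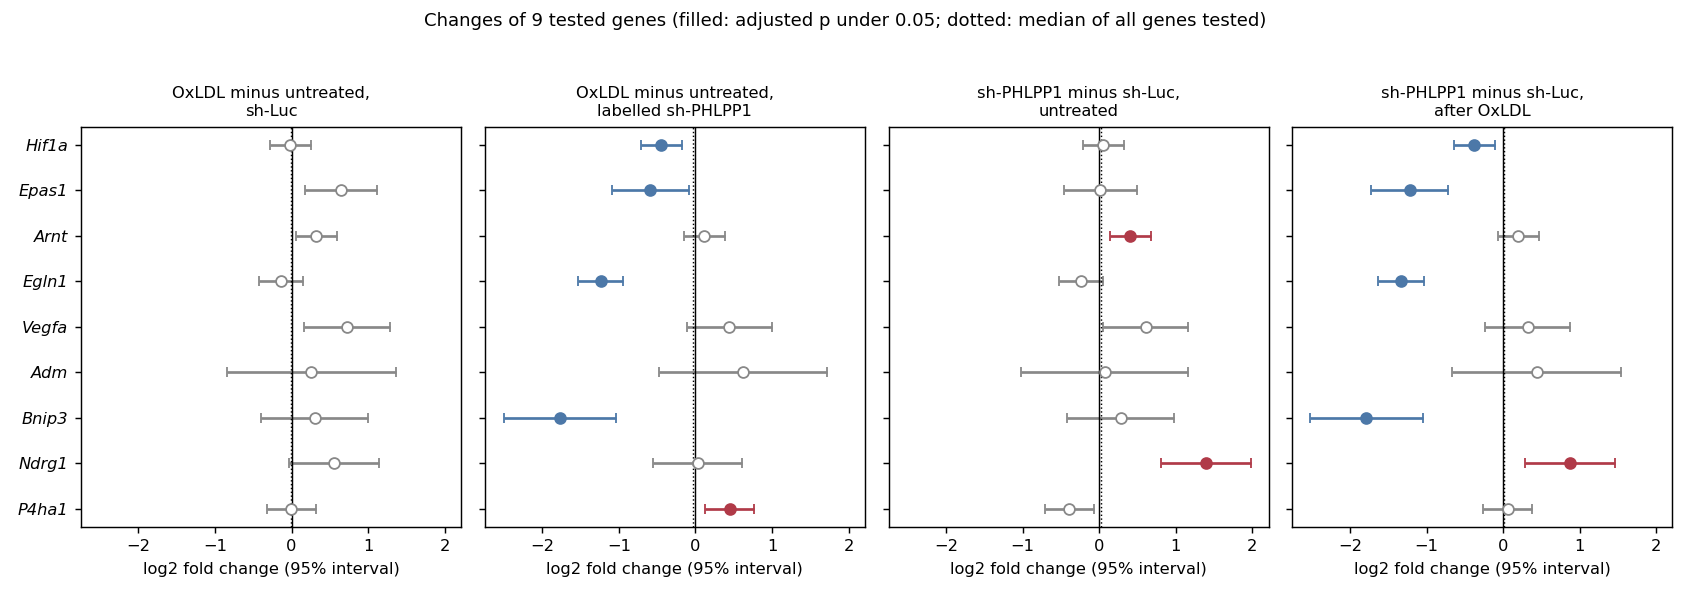
Log2 fold change with its 95% interval for the 9 genes tested, in OxLDL against untreated within each line and in libraries labelled sh-PHLPP1 against sh-Luc within each treatment. Filled points passed an adjusted p of 0.05, and the dotted line is the median of all genes tested. No point is filled for OxLDL in sh-Luc, while Hif1a, Epas1, Egln1 and Bnip3 lie left of 0 in both panels that involve the line labelled sh-PHLPP1 after OxLDL.

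Of the HIF subunits, both alpha genes were lowered by OxLDL in the sh-PHLPP1-labelled line and neither was called in sh-Luc. Hif1a (ENSMUSG00000021109, chromosome 12, 73901375 to 73947530, GRCm38), the HIF-1 alpha subunit, stood at 157, 129 and 137 CPM in untreated sh-Luc and at 137, 135 and 147 CPM after OxLDL. The untreated libraries labelled sh-PHLPP1 held 153, 151 and 135 CPM, and those after OxLDL 121, 113 and 89.3 CPM. The last group lay below every other library, and the remaining groups overlapped one another. The fall with OxLDL in that line was 1.36-fold (log2 fold change -0.44 ± 0.12, SE, adjusted p = 0.00943), while sh-Luc gave -0.016 ± 0.12 (95% interval -0.29 to 0.25). After OxLDL Hif1a was lower in libraries labelled sh-PHLPP1 than in sh-Luc (-0.38 ± 0.12, adjusted p = 0.0220), but not when sh-Luc OxLDL replicate 3 was left out (-0.35, adjusted p = 0.0679) or the lowest library, replicate 3 of the OxLDL group labelled sh-PHLPP1 (-0.27, adjusted p = 0.0614). In bulk RNA, fewer transcripts per cell and fewer cells with the transcript cannot be told apart. Scaling by library size alone moved the median log2 fold change of all genes to -0.46 for OxLDL in that line and to -0.25 between the lines after OxLDL, and relative to these medians Hif1a lay at -0.40 and -0.38. In the annotation Hif1a shares 148 exon bases with a same-strand gene, Gm49321, which is absent from the deposited counts, and 330 with antisense Gm15283, which had 24 counts in all against 35356 for Hif1a.

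Epas1 (ENSMUSG00000024140, chromosome 17, 86753700 to 86833410), the HIF-2 alpha subunit, stood at 3.72, 6.07 and 3.96 CPM in untreated sh-Luc and at 8.17, 7.35 and 6.04 CPM after OxLDL. In the libraries labelled sh-PHLPP1 it stood at 3.76, 5.49 and 4.64 CPM untreated and at 3.38, 3.14 and 2.74 CPM after OxLDL. Its groups overlapped in sh-Luc, through the high untreated replicate 2, and did not overlap in the other line. After OxLDL it was lower by 2.33-fold where the label was sh-PHLPP1 (-1.22 ± 0.23, adjusted p = 0.000850). The change within sh-Luc was not called (0.65 ± 0.22, adjusted p = 0.0799), but was when replicate 2 of untreated sh-Luc was left out (0.91, adjusted p = 0.0157), without replicate 1 of the untreated libraries labelled sh-PHLPP1 (0.66, adjusted p = 0.0285)  and without both (0.92, adjusted p = 0.00118). The fall within the sh-PHLPP1-labelled line was near the threshold (-0.59 ± 0.23, adjusted p = 0.0471). It was lost in 8 of the 12 fits that each left out 1 library, namely without sh-Luc untreated 3, sh-Luc OxLDL 1 or 2, untreated sh-PHLPP1 2 or 3, or sh-PHLPP1 OxLDL 1, 2 or 3, and with the 6 libraries compared alone (-0.58, adjusted p = 0.0636). Counts per library ran from 37 to 200.

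Arnt (ENSMUSG00000015522, chromosome 3, 95434388 to 95497240), the common beta subunit, stood at 48.1, 50.2 and 46.8 CPM in untreated sh-Luc and at 65.0, 63.8 and 63.4 CPM in untreated libraries labelled sh-PHLPP1. These groups did not overlap and differed by 1.32-fold (0.41 ± 0.12, adjusted p = 0.0294). That call was lost without any 1 of sh-Luc untreated replicates 1, 2 or 3 or of untreated replicates 2 or 3 labelled sh-PHLPP1 (0.38 to 0.43, adjusted p of 0.0554 to 0.0872), with only the libraries compared (0.40, adjusted p = 0.0590) and with no filter on low counts (0.40, adjusted p = 0.0516). After OxLDL Arnt stood at 58.6, 62.3 and 60.7 CPM in sh-Luc, above all 3 untreated libraries of that line, yet the change was not called (0.32 ± 0.12, adjusted p = 0.119). It passed with only the libraries compared (0.32, adjusted p = 0.0149) and without sh-PHLPP1 OxLDL replicate 3 (0.32, adjusted p = 0.0239). In the other line OxLDL libraries held 79.2, 74.3 and 54.9 CPM and overlapped the untreated ones (0.12 ± 0.12, adjusted p = 0.436). Replicate 3 was the low library there, and without it the change within the line (0.25, adjusted p = 0.0304) and the difference from sh-Luc (0.33, adjusted p = 0.00928) were called.

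Of the prolyl hydroxylases, Egln1 had the largest F statistic of the 9 genes over the 4 groups. Egln1 (ENSMUSG00000031987, chromosome 8, 124908587 to 124949324) encodes PHD2, the main hydroxylase of HIF alpha subunits, and its promoter is printed above. Untreated sh-Luc libraries held 51.7, 54.5 and 60.8 CPM, and those after OxLDL held 48.3, 53.5 and 49.6 CPM. Among libraries labelled sh-PHLPP1 it stood at 37.4, 51.6 and 52.5 CPM untreated and at 18.8, 21.7 and 19.5 CPM after OxLDL. The last 3 values lay below all 9 others, and the other groups overlapped. OxLDL lowered Egln1 2.36-fold in that line (-1.24 ± 0.14, adjusted p = 1.59e-05), and in sh-Luc the change was not called (-0.14 ± 0.13, 95% interval -0.43 to 0.15). After OxLDL the lines differed by 2.52-fold (-1.34 ± 0.14, adjusted p = 1.37e-05). Both calls held in each of 19 alternative fits, at -1.66 to -1.16 for the fall with OxLDL and -1.60 to -1.29 between the lines. Egln3 (ENSMUSG00000035105, chromosome 12, 54178981 to 54203860), which encodes PHD3, had 1 count in untreated sh-Luc replicate 2, 1 count in sh-Luc OxLDL replicate 2 and 0 in the other 10 libraries. It was not tested, and up to 3 counts could have gone unseen in a library at 0, which corresponds to 0.0999 to 0.222 CPM.

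The secreted products gave no call in any comparison. Vegfa (ENSMUSG00000023951, chromosome 17, 46016993 to 46032369), a growth factor for blood vessels, stood at 41.2, 17.9 and 42.6 CPM in untreated sh-Luc and at 54.2, 62.6 and 51.1 CPM after OxLDL. The libraries labelled sh-PHLPP1 held 57.8, 45.1 and 51.8 CPM untreated and 78.8, 73.3 and 58.2 CPM after OxLDL. In both lines every OxLDL library lay above every untreated one, by log2 fold changes of 0.73 ± 0.26 (adjusted p = 0.0966) and 0.44 ± 0.26 (adjusted p = 0.157). Untreated sh-Luc replicate 2 held the lowest level, and without both outlying libraries the changes were 0.43 (adjusted p = 0.0259) and 0.53 (adjusted p = 0.00282). With no filter on low counts the sh-Luc change was also called (0.73, adjusted p = 0.0481), and without untreated sh-Luc replicate 2 alone the change in the other line was (0.44, adjusted p = 0.0169). Between the lines Vegfa was not called untreated (0.61 ± 0.26, adjusted p = 0.0938) or after OxLDL (0.32 ± 0.26, adjusted p = 0.300). The latter passed with only the libraries compared (0.31, adjusted p = 0.0486) and without both outlying libraries (0.30, adjusted p = 0.0298). Adm (ENSMUSG00000030790, chromosome 7, 110627661 to 110629820), which encodes the vasodilator peptide adrenomedullin, had 2 to 20 counts per library and 0.0916 to 0.814 CPM. Its groups overlapped in every comparison, and its 95% interval of the log2 fold change with OxLDL ran from -0.85 to 1.37 in sh-Luc and from -0.47 to 1.72 in the other line.

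Bnip3 (ENSMUSG00000078566, chromosome 7, 138890836 to 138909519) encodes a mitochondrial protein that marks mitochondria for removal by autophagy, and its fall with OxLDL in the sh-PHLPP1-labelled line was the largest of the 9 genes. Untreated sh-Luc libraries held 53.8, 28.0 and 48.2 CPM, and those after OxLDL 53.4, 50.6 and 56.2 CPM. Untreated libraries labelled sh-PHLPP1 held 25.0, 64.7 and 68.2 CPM, and those after OxLDL 12.6, 14.7 and 19.1 CPM. The lowest library of either untreated group was the one that stands apart, and the OxLDL libraries labelled sh-PHLPP1 still lay below both. The fall was 3.41-fold (-1.77 ± 0.34, adjusted p = 0.000894), and after OxLDL the lines differed by 3.45-fold (-1.79 ± 0.34, adjusted p = 0.000908). Both calls held in each of 19 alternative fits. For sh-Luc the change with OxLDL was not called (0.30 ± 0.32, adjusted p = 0.595). Between the untreated lines Bnip3 was not called (0.28 ± 0.32), but it was called higher in libraries labelled sh-PHLPP1 without their replicate 1 (0.61, adjusted p = 0.0347) and without both outlying libraries (0.38, adjusted p = 0.0362). In the reference annotation a processed pseudogene lies on the other strand in an intron of Bnip3 and shares 0 exon bases with it. An antisense gene shares 504 exon bases with Bnip3. As the strand setting of the counting is not given, reads of that antisense gene in the shared bases cannot be told apart from those of Bnip3.

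Ndrg1 (ENSMUSG00000005125, chromosome 15, 66929318 to 66969640), a stress-responsive gene induced by hypoxia in many cells, differed between the lines in both treatments and was not called for OxLDL in either line. Untreated sh-Luc libraries held 169, 76.0 and 166 CPM, and untreated libraries labelled sh-PHLPP1 held 243, 416 and 421 CPM. After OxLDL the levels were 192, 219 and 191 CPM in sh-Luc and 374, 392 and 335 CPM in libraries labelled sh-PHLPP1. The lines did not overlap in either treatment, the OxLDL libraries of sh-Luc all lay above its untreated ones, and the libraries that stand apart were the lowest of their groups. Ndrg1 was 2.63-fold higher in libraries labelled sh-PHLPP1 untreated (1.39 ± 0.27, adjusted p = 0.00440) and 1.83-fold higher after OxLDL (0.87 ± 0.27, adjusted p = 0.0162). The first call was lost with only the libraries compared (1.38, adjusted p = 0.0637). The second was lost without sh-Luc OxLDL replicate 1 (0.82, adjusted p = 0.0557) or 3 (0.82, adjusted p = 0.0570) and with library size alone (0.61, adjusted p = 0.0830, or 0.86 relative to the median of all genes). OxLDL itself gave no call in sh-Luc (0.55 ± 0.27, adjusted p = 0.222) or in the other line (0.03 ± 0.27, adjusted p = 0.934). It shares 137 exon bases with antisense Gm2895, which had 50 counts in all against 68150 for Ndrg1, and 419 with antisense Gm17035, which had 0.

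P4ha1 (ENSMUSG00000019916, chromosome 10, 59323296 to 59373304), a catalytic subunit of the enzyme that hydroxylates collagen prolines, moved the other way from Bnip3 and Egln1. It stood at 223, 308 and 223 CPM in untreated sh-Luc and at 225, 269 and 258 CPM after OxLDL. The libraries labelled sh-PHLPP1 held 225, 179 and 171 CPM untreated and 261, 255 and 267 CPM after OxLDL, with no overlap. OxLDL raised it 1.36-fold in that line (0.45 ± 0.15, adjusted p = 0.0218), while sh-Luc gave -0.0051 ± 0.15 (95% interval -0.32 to 0.31). The call was lost without untreated replicate 2 (0.39, adjusted p = 0.0745) or 3 (0.36, adjusted p = 0.0859) or OxLDL replicate 3 (0.42, adjusted p = 0.0621) of that line, and with library size alone (0.02, or 0.48 relative to the median of all genes). Between the untreated lines P4ha1 was not called (-0.39 ± 0.15, adjusted p = 0.0639). It was called lower in libraries labelled sh-PHLPP1 with DESeq2 (-0.42, adjusted p = 0.0318), without their replicate 1 (-0.53, adjusted p = 0.00852) and without both outlying libraries (-0.36, adjusted p = 0.00968).

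Whether the response to OxLDL itself differed between the lines was tested as an interaction, the log2 fold change with OxLDL in the sh-PHLPP1-labelled line minus that in sh-Luc. It was called negative for 3 of the 9 genes and called positive for 0, where 24.6% of all genes were called, 11.1% higher and 13.6% lower. Bnip3 gave -2.07 ± 0.47 (adjusted p = 0.00867), Epas1 -1.24 ± 0.32 (adjusted p = 0.0157) and Egln1 -1.10 ± 0.19 (adjusted p = 0.00205). Each of these calls held in all 18 alternative fits, with adjusted p up to 0.0230, 0.0412 and 0.00765. The interaction of Hif1a was not called (-0.43 ± 0.18, adjusted p = 0.0915), so a difference in its response between the lines is not shown. That of P4ha1 was positive and not called (0.45 ± 0.21, adjusted p = 0.128), but was without replicate 1 of the untreated libraries labelled sh-PHLPP1 (0.57, adjusted p = 0.0351) and without both outlying libraries (0.40, adjusted p = 0.0261). Ndrg1 was not called either (-0.52 ± 0.38, adjusted p = 0.328), except without both of those libraries (-0.46, adjusted p = 0.0162). With library size alone, where the median of all genes was -0.43, Hif1a (-0.80, adjusted p = 0.0123) and Arnt (-0.58, adjusted p = 0.0451) were also called, and relative to that median they lay at -0.36 and -0.14.

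**Figure D3:**
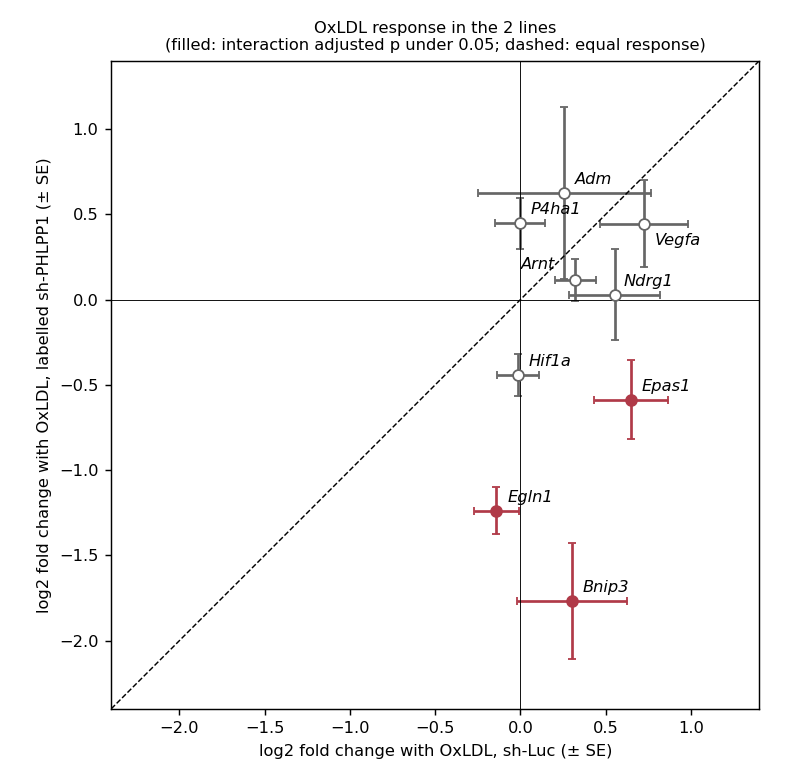
Log2 fold change with OxLDL in sh-Luc (horizontal, ± SE) against that in the line labelled sh-PHLPP1 (vertical, ± SE) for the 9 genes tested, with the line of equal response dashed. Filled points, for Epas1, Egln1 and Bnip3, have an interaction with an adjusted p under 0.05 and lie below the line.

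The rest of the pathway was examined with 5 lists, whose counts are to be read against the shares of all genes called with OxLDL, 9.47% for sh-Luc and 54.6% for the sh-PHLPP1-labelled line (26.2% higher and 28.4% lower). Among 15 tested genes of oxygen sensing and HIF turnover, OxLDL changed 0 in sh-Luc (edgeR; 3 at an unadjusted p under 0.05), and in the line labelled sh-PHLPP1 it raised 6 and lowered 6, with a median log2 fold change of 0.20. Egln2, which encodes PHD1, fell in that line (-0.80 ± 0.14, adjusted p = 0.000409), from 47.6, 53.7 and 58.2 CPM to 33.0, 34.2 and 24.1 CPM. Its groups did not overlap, and its interaction was called (-0.69 ± 0.19, adjusted p = 0.0224), as was that of Egln1. Sirt1, a deacetylase that acts on HIF alpha subunits, fell too (-1.05 ± 0.15, adjusted p = 9.05e-05). Between the untreated lines 1 of the 15 was higher and 3 were lower in libraries labelled sh-PHLPP1, where 14.9% of all genes were higher and 12.2% lower. The higher one was Vhl, the ligase subunit that recognises hydroxylated HIF (0.44 ± 0.14, adjusted p = 0.0375). Those lower included Cited2 (-0.44 ± 0.11, adjusted p = 0.0159) and Rbx1 (-0.54 ± 0.15, adjusted p = 0.0239).

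Of 18 tested glycolytic targets of HIF, OxLDL raised 2 and lowered 0 in sh-Luc, and raised 5 and lowered 5 in the line labelled sh-PHLPP1, with medians of 0.15 and -0.0021, against 9.47% and 54.6% of all genes called. Pdk1, a kinase that keeps pyruvate out of the citrate cycle, stood at 67.2, 88.6 and 76.1 CPM in untreated libraries labelled sh-PHLPP1 and at 9.26, 11.8 and 9.77 CPM after OxLDL. This was a 7.51-fold fall (-2.91 ± 0.17, adjusted p = 1.01e-07). In sh-Luc Pdk1 was not called and stood at 90.8, 58.8 and 82.1 CPM untreated and 70.8, 67.8 and 70.8 CPM after OxLDL. The interaction was -2.76 ± 0.23 (adjusted p = 1.23e-05). Pfkl, the liver-type phosphofructokinase, fell as well (-1.94 ± 0.15, adjusted p = 7.61e-07). Eno2, an enolase isoform typical of neurons, rose in the same line from 6.14, 12.0 and 13.2 CPM to 121, 116 and 104 CPM (3.44 ± 0.22, adjusted p = 1.73e-07) and less in sh-Luc (1.83 ± 0.22, adjusted p = 0.000258), with an interaction of 1.60 ± 0.30 (adjusted p = 0.00324).

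Of 23 other hypoxia targets, 4 rose and 0 fell with OxLDL in sh-Luc, and 4 rose and 5 fell in the line labelled sh-PHLPP1 (medians 0.12 and 0.14), against 9.47% and 54.6% of all genes. Hilpda, a hypoxia-inducible inhibitor of lipolysis on lipid droplets, rose in both, from 11.6, 8.72 and 9.47 CPM to 261, 271 and 315 CPM where the label was sh-PHLPP1 (4.83 ± 0.21, adjusted p = 9.14e-09), and its interaction was 2.59 ± 0.27 (adjusted p = 5.81e-05). Ak4, a mitochondrial adenylate kinase, and Kdm4b, a histone demethylase, fell there (-1.30 ± 0.15, adjusted p = 2.20e-05 and -1.26 ± 0.12, adjusted p = 5.62e-06). The known hypoxia targets that fell in this line included Bnip3, Egln1, Pdk1 and Ak4, and those that rose included Hilpda and Eno2.

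Among 8 tested ligands and receptors of the VEGF and adrenomedullin families, OxLDL raised 1 in sh-Luc and raised 3 and lowered 1 in the line labelled sh-PHLPP1 (medians 0.16 and 0.77), against 9.47% and 54.6% of all genes. Vegfc, a growth factor of lymphatic vessels, stood at 35.2, 75.2 and 34.7 CPM in untreated sh-Luc and at 3.21, 1.07 and 1.47 CPM in untreated libraries labelled sh-PHLPP1, where OxLDL raised it to 40.9, 37.9 and 44.2 CPM (4.46 ± 0.39, adjusted p = 2.16e-06). Nrp1, a co-receptor for VEGF, rose in sh-Luc (0.86 ± 0.13, adjusted p = 0.00120) and fell in the other line (-0.98 ± 0.13, adjusted p = 5.07e-05), and the interaction was -1.84 ± 0.18 (adjusted p = 3.81e-05). Calcrl, the receptor that binds adrenomedullin together with a RAMP protein, rose in the sh-PHLPP1-labelled cells (1.42 ± 0.12, adjusted p = 1.41e-06). Of 6 tested relatives and partners of Ndrg1 and P4ha1, 0 rose and 1 fell with OxLDL in sh-Luc (median 0.07). In the other line 2 rose and 2 fell (median -0.59), against the same shares. The 2 that fell there were NDRG genes, and the 2 that rose were not. Ndrg2, unlike Ndrg1, fell in both lines (-1.01 ± 0.11, adjusted p = 0.000119, and -1.91 ± 0.11, adjusted p = 1.01e-07).

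**Figure D4:**
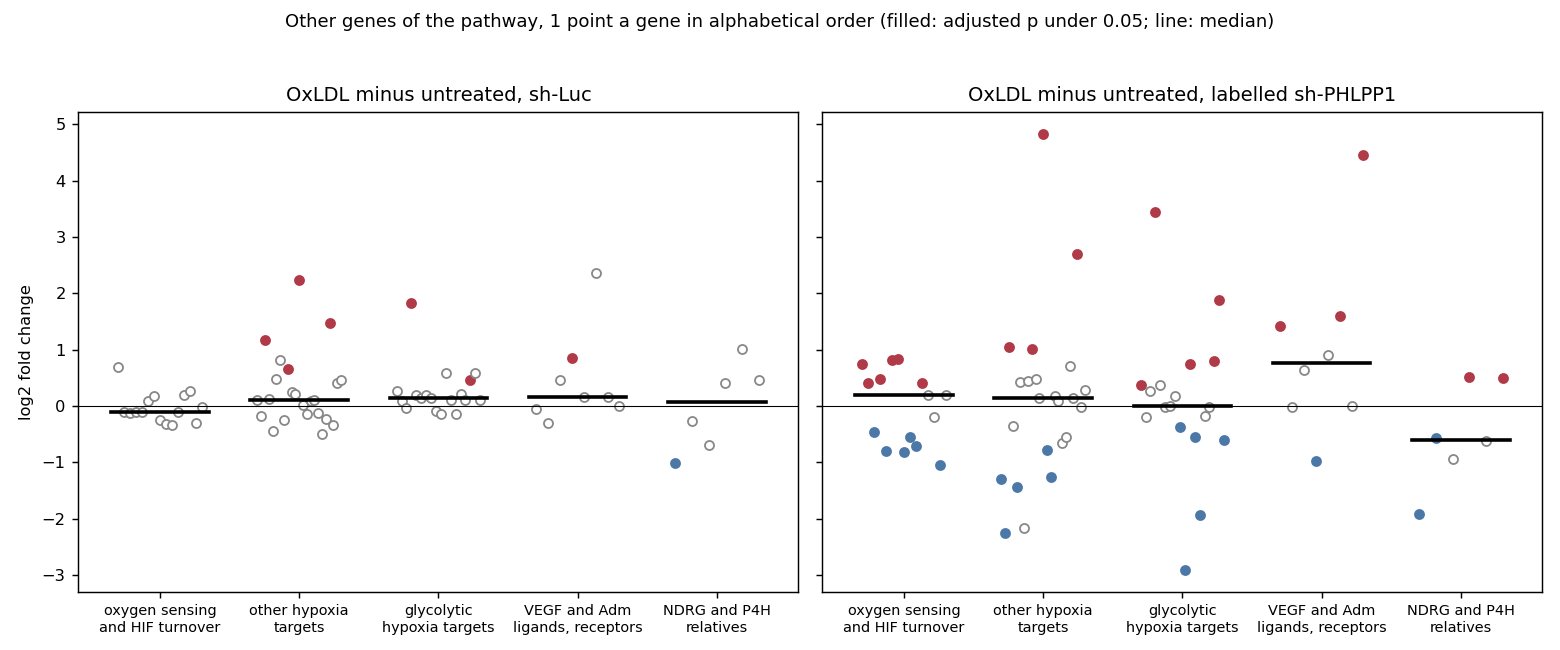
Log2 fold change with OxLDL for the genes of the 5 wider lists in sh-Luc (left) and in the line labelled sh-PHLPP1 (right), 1 point per tested gene, filled where the adjusted p was under 0.05, with the list median as a line. Filled points lie on both sides of 0 in the right panel, from Pdk1 at -2.91 to Hilpda at 4.83.

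The authors' deposited table for OxLDL in sh-Luc lists 8 of the 10 genes and gives adjusted p under 0.05 for 3 of them, Epas1 (log2 fold change 0.65, adjusted p = 0.0312), Arnt (0.33, adjusted p = 0.00310) and Vegfa (0.73, adjusted p = 0.0416), where 25.8% of its 11854 rows are under 0.05. The authors' deposited table for the untreated lines calls Arnt (0.38, adjusted p = 0.00415) and Ndrg1 (1.37, adjusted p = 0.00220), 2 of 8 genes listed, where 20.4% of its 12028 rows are called. The authors' deposited table after OxLDL calls 6 of 8, namely Hif1a, Epas1, Egln1 and Bnip3 lower and Ndrg1 and Vegfa higher, the last at 0.33 (adjusted p = 0.0325), where 65.5% of its 11998 rows are called.

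For the 3 genes with the largest F statistic over the groups, the 3 most alike genes by Pearson correlation of log2 CPM over the 12 libraries are given as a description, since the libraries fall into 4 groups. For Egln1 they were Arhgef7 (r = 0.987), Twf2 (0.985) and Dlg3 (0.980), and Arhgef7 stood at 440 and 448 CPM in sh-Luc without and with OxLDL and at 412 and 148 CPM in libraries labelled sh-PHLPP1. For Ndrg1 they were Aldh1l2 (0.991), Osbpl2 (0.988) and Rgs3 (0.983), and Aldh1l2 stood at 16.9 and 38.4 CPM for sh-Luc and at 224 and 235 CPM in libraries labelled sh-PHLPP1. For Bnip3 they were Ak1 (0.972), Amhr2 (0.965) and Gm16439 (0.964).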

How the data were processed

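RNA of 12 libraries of RAW 264.7 cells was sequenced. The authors deposited raw counts of reads per Ensembl gene (39179 rows). The submitters' processing notes name FastQC, Trimmomatic, HTSeq, DESeq2 and build GRCm38, with no roles given. Aligner, strand setting and versions are not given in the sources used here. Log2 fold changes and adjusted p-values for 3 comparisons, also deposited by the authors, served only to set their calls beside those made here.

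The analysis used R 4.3.3 and edgeR 4.0.16. filterByExpr left 13121 genes, scaling was by TMM, and the quasi-likelihood test compared 4 group means fitted to all 12 libraries, without a block. Tests were 2-sided, with Benjamini-Hochberg adjustment over all genes and calls at an adjusted p under 0.05. Each SE was the absolute log2 change divided by the root of F, which is approximate. Exon lengths and positions came from GENCODE M21 (GRCm38). The fit was tested on simulated counts: at a simulated log2 change of 1, it recovered 82.7% of changed genes for OxLDL in sh-Luc (12889 genes run) and 39.4% for the interaction (12901 genes run). Those counts had the same spread for every gene, few changed genes and no outlying library, so the shares may not hold for the comparisons made here. Alternatives were other scalings, no filter, a replicate block, DESeq2 1.42.0, fewer libraries in the fit, and each library left out. Limits by counting cover counting error only. Members and lists were chosen with earlier results of these data known. A gene named from a list was among its 3 with the smallest p in the comparison given.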

Additional observations from a re-analysis of the deposited data

Results flagged for a closer look

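The response to OxLDL differed between the lines, by the test of the difference itself (edgeR interaction), for 3 of the 9 genes, where 24.6% of all genes were called. The log2 differences, line labelled sh-PHLPP1 minus sh-Luc, were -2.07 for Bnip3 (adjusted p = 0.00867), -1.24 for Epas1 (adjusted p = 0.0157) and -1.10 for Egln1 (adjusted p = 0.00205). Within lines, Bnip3 and Egln1 fell in the one labelled sh-PHLPP1 and were not called in sh-Luc, and Epas1 had positive values in sh-Luc and negative ones in the other line.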

How the results depend on the processing

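Of 844 refits of single genes, 760 kept direction and side of the threshold, 26 lost a call, 23 gained one and 35 changed sign, none of them with a call in either fit. Members called moved for OxLDL in sh-Luc from 0 to 1 with no filter or only the libraries compared and to 2 without both outlying libraries, between the untreated lines from 2 to 1 with no filter, 3 with DESeq2, 0 with only the libraries compared and 4 without both libraries, for OxLDL in sh-PHLPP1 from 5 to 4 with library size alone or only the libraries compared and 6 without both libraries, between the lines after OxLDL from 5 to 4 with library size alone and 6 with only the libraries compared or without both libraries, and for the interaction from 3 to 5 with library size alone and 5 without both libraries. Leaving out 1 library gave 0 to 1, 3 to 6, 1 to 4, 3 to 5 and 3 to 4 members in the order OxLDL in sh-Luc, OxLDL in sh-PHLPP1, lines untreated, lines after OxLDL and interaction. Genes called over the whole table (1242, 7169, 3549, 7240 and 3231) ranged without 1 library from 564 to 3086, 6151 to 7535, 1515 to 6372, 6114 to 8235 and 2114 to 4496. They moved to 1922 with DESeq2, 2944 with only the libraries compared and 3528 without both libraries for OxLDL in sh-Luc, to 733 and 6267 with the latter settings between the untreated lines, and to 5319 without both for the interaction. Library size alone changed the split of higher and lower calls from 3441 and 3728 to 1572 and 6381 (OxLDL in sh-PHLPP1), 1950 and 1599 to 2620 and 996 (lines untreated, median of all genes 0.15), 3621 and 3619 to 2180 and 5107 (lines after OxLDL), and 1451 and 1780 to 569 and 4214 (interaction). The cause of these shifts was not tested.

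Changes of sign were as follows. With library size alone: Arnt -0.30 and Ndrg1 -0.40 for OxLDL in sh-PHLPP1, Arnt -0.053 and P4ha1 -0.20 between the lines after OxLDL, and Adm -0.015 in the interaction. With no filter: Ndrg1 -0.031 for OxLDL in sh-PHLPP1 and P4ha1 -0.0064 between the lines after OxLDL. With DESeq2 size factors and DESeq2: Epas1 -0.016 and -0.016 between the untreated lines. Without both outlying libraries: P4ha1 0.17 for OxLDL in sh-Luc, Ndrg1 -0.20 for OxLDL in sh-PHLPP1, Hif1a -0.049 between the untreated lines, and Vegfa 0.10 and Adm -0.053 in the interaction. Leaving out 1 library spanned 0 for Hif1a (-0.072 to 0.074) and P4ha1 (-0.079 to 0.17) with OxLDL in sh-Luc, Ndrg1 (-0.20 to 0.15) with OxLDL in sh-PHLPP1, Hif1a (-0.015 to 0.13), Epas1 (-0.13 to 0.27) and Adm (-0.47 to 0.49) between the untreated lines, P4ha1 (-0.031 to 0.11) between the lines after OxLDL, and Vegfa (-0.49 to 0.014) and Adm (-0.067 to 0.89) in the interaction.

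With the replicate number as a block, called members numbered 0, 5, 2, 5 and 3, as without it, and genes called 1115, 6984, 3282, 7051 and 2965; signs changed for P4ha1 with OxLDL in sh-Luc (0.0016) and Adm between the untreated lines (-0.029). Deviations of same-numbered libraries correlated at -0.30 to 0.31 and those of differently numbered libraries at -0.32 to 0.31. With 3 libraries in a group and both outlying libraries included, these values cannot decide whether the passages pair the libraries. The main fit left them unpaired. Depth limits Adm and Egln3.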
